A study of Mus musculus with 3 samples.

Results

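Voltage-gated sodium channels and the fibroblast growth factor homologous factors that bind them were followed in single-cell RNA sequencing of mouse hearts. The group has 6 members of the 30415 gene symbols counted: the homologous factors Fgf12, Fgf13 and Fgf14, the pore-forming alpha subunits Scn10a and Scn4a, and the beta subunit Scn4b. Members were picked by name and by their levels and joint detection in these same libraries, so those values describe the members and support no test. All mice were NOD/SCID, a background that lacks working T and B cells, and received isotype control antibody, pembrolizumab (PEM, against PD-1) or atezolizumab (ATZ, against PD-L1) on days 0 and 7. Hearts were taken on day 14, and 3 hearts of a group were pooled into 1 library, named isotype, PD1/PEM and PDL1/ATZ here as in their titles. In the treatment tags the 2 antibodies are exchanged between PD1/PEM and PDL1/ATZ, so no difference can be assigned to one antibody. With 1 library per group there is no replicate check, and all intervals below are 95% intervals for counting error only.

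A sodium channel opens on depolarisation and carries the inward current that starts the action potential of heart muscle. Homologous factors share the fold of fibroblast growth factors but stay inside the cell, bind the tail of the channel's alpha subunit and shift the voltage at which the channel inactivates. Fgf13 is the best studied of them in mouse ventricle, while Fgf12 and Fgf14 are also well known from neurons. Beta subunits such as Scn4b are small membrane proteins that attach to the alpha subunit and modify its gating. Scn10a encodes an alpha subunit best known from sensory neurons, and Scn4a encodes the alpha subunit of skeletal muscle.

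The 3 homologous factor genes are among the longest in the genome. Fgf12 spans chr16:28160098-28753068 on the minus strand of GRCm38 (593 kb), Fgf13 spans chrX:59062145-59568071 on the minus strand (506 kb) and Fgf14 spans chr14:123977907-124677127 on the minus strand (699 kb). At least 99.0% of protein-coding genes have a shorter span than each of these. Scn10a covers 111 kb on chromosome 9, Scn4a 34.7 kb on chromosome 11 and Scn4b 15.8 kb on chromosome 9. No protein-coding gene overlaps any member in GENCODE M21. Within Fgf14, however, 2 antisense genes listed in the count tables, Gm28932 and 1700024B18Rik, lie on the opposite strand, and the strand setting of the counting is not given in the sources used here.

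RefSeq windows around annotated starts, 250 bases before to 50 after, matched all 6 members, with 4 windows each for Fgf12 and Fgf13 and 1 for each other member. The first windows of Fgf12 and Fgf13 lie beyond the 5′ ends of the GENCODE spans given above. The Fgf14 window lies inside its span, far from the 5′ end, so the 2 annotations do not give the same starts. The first listed window of each homologous factor is printed 5′ to 3′ on the gene's strand, because these 3 genes carry the differences between cells described further on. Capitals mark 5 motifs searched on both strands: a MEF2 motif (CTA and TAG with any 4 bases between), a GATA motif (AGATAA), a T-box motif (AGGTGT), a GC box (GGGCGG) and a TATA box (TATAAA).
Fgf12, chr16:28753194-28753493: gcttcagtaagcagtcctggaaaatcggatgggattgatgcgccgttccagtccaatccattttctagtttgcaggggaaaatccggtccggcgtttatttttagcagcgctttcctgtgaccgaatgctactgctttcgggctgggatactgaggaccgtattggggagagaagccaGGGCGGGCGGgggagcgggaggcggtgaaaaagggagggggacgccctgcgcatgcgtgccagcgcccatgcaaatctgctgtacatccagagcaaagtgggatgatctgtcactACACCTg
Fgf13, chrX:59585523-59585822: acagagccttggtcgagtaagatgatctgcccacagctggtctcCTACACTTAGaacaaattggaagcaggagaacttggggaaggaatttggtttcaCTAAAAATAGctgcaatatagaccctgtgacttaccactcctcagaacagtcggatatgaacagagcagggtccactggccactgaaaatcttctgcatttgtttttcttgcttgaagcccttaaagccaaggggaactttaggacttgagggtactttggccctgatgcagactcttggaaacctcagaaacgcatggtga
Fgf14, chr14:124192497-124192796: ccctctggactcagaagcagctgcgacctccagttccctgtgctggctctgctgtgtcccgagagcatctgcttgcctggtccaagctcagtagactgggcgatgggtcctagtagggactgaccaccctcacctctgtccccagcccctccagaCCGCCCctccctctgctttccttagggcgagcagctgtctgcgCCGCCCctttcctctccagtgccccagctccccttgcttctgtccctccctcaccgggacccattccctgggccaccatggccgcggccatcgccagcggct
The Fgf13 window (GRCm38.p6, minus strand) held 2 MEF2 matches, CTACACTTAG and CTAAAAATAG, and MEF2 matches occurred in 3.69% of 32851 windows of this length. The Fgf12 window held 2 GC boxes that share bases and 1 T-box match in reverse orientation, and the Fgf14 window held 2 GC boxes in reverse orientation. GC boxes were present in 35.7% and T-box matches in 13.7% of all windows. GC content was 46.3% in the Fgf13 window, 56.3% in the Fgf12 window and 65.7% in the Fgf14 window, against a median of 52.7% over all windows. Windows 2 and 4 of Fgf13 had 4 GC boxes each and no MEF2 match, so the annotated starts of this gene differ among themselves. None of the 5 motifs was found in the windows of Scn10a, Scn4a or Scn4b. Counts from 3′ ends do not tell which start was used, and a match is a description of letters only.

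The libraries differed in depth and in mitochondrial content. The isotype library held 9510 cells and 16677883 unique molecular identifiers (UMIs, counted RNA molecules), PD1/PEM 6388 cells and 14766346 UMIs, and PDL1/ATZ 11599 cells and 15144668 UMIs. Median mitochondrial share per cell was 27.1% in isotype and 26.9% in PD1/PEM but 8.04% in PDL1/ATZ. Heart muscle markers were present throughout: all 8 cardiomyocyte markers had 10 or more UMIs in each library, and their summed level was 30869 UMIs per 1000000 UMIs (CPM) in isotype, 22826 in PD1/PEM and 11149 in PDL1/ATZ. There were 23 cell barcodes common to isotype and PD1/PEM, and 0 common to PDL1/ATZ and either of them. Across such libraries, fewer muscle cells and less RNA per muscle cell cannot be told apart from the library totals alone.

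Among the homologous factors, Fgf12 and Fgf13 had similar library levels in isotype and PD1/PEM and much lower ones in PDL1/ATZ. Fgf12 stood at 423 CPM in isotype (interval 413 to 433, 7056 UMIs), 471 CPM in PD1/PEM (460 to 483) and 110 CPM in PDL1/ATZ (105 to 116). Fgf13 stood at 494 CPM in isotype (484 to 505, 8242 UMIs), 497 CPM in PD1/PEM (486 to 508) and 143 CPM in PDL1/ATZ (137 to 149). For both genes the PDL1/ATZ interval lies far below the other two. Fgf14 stood at 135 CPM in isotype (130 to 141), 158 CPM in PD1/PEM (152 to 165) and 121 CPM in PDL1/ATZ (116 to 127), so its 3 libraries lie close together.

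The 3 channel subunits were near the limit of detection. Scn4b, the beta subunit, had 166 UMIs in isotype (9.95 CPM, 8.50 to 11.6), 124 in PD1/PEM (8.40 CPM, 6.98 to 10.0) and 90 in PDL1/ATZ (5.94 CPM, 4.78 to 7.30). Scn10a had 77, 71 and 71 UMIs in the same order, which are 4.62, 4.81 and 4.69 CPM. Scn4a had 62, 73 and 45 UMIs, which are 3.72, 4.94 and 2.97 CPM. Intervals of Scn10a overlap among all 3 libraries, as do those of Scn4a, whereas the PDL1/ATZ interval of Scn4b lies below that of isotype. No cell held more than 2 UMIs of any of the 3. Markers of the tissues for which these alpha subunits are known were also low: 9 neuron markers summed to 23.3, 30.1 and 40.2 CPM in isotype, PD1/PEM and PDL1/ATZ, with none at 0, and 9 skeletal muscle markers to 11.8, 12.1 and 13.1 CPM, with 1 of them at 0 in isotype. Their part in the Scn10a and Scn4a counts was not tested.

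**Figure D1:**
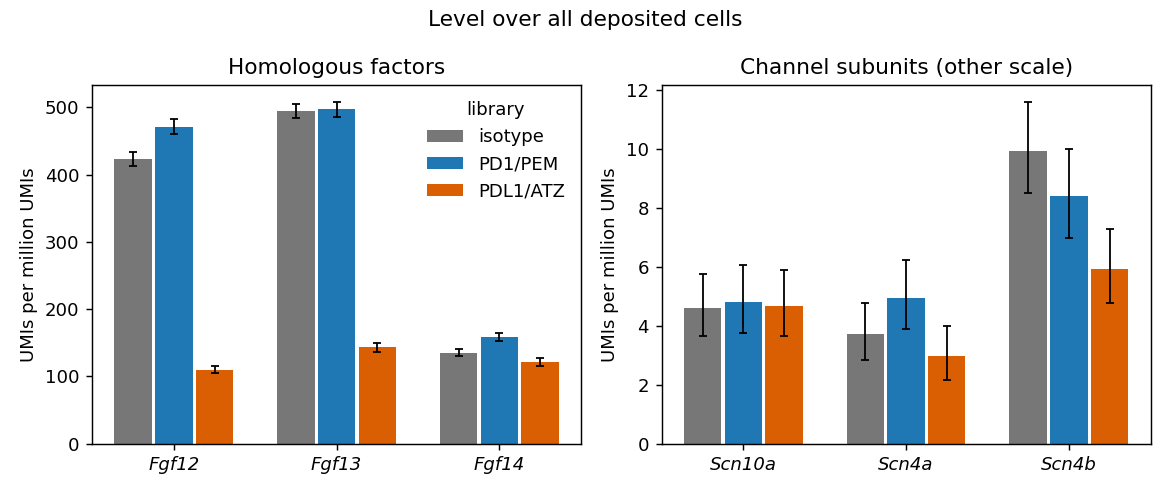
Level of each member in CPM over all deposited cells of a library (bars, 1 library each) with 95% Poisson intervals for counting error; the 2 panels have different scales. Fgf12 and Fgf13 are low in PDL1/ATZ (110 and 143 CPM), while Fgf14 and Scn10a are of similar height in all 3 libraries.

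Against isotype, no member of PD1/PEM differed by 1.5-fold or more in either direction. Among 14748 genes with at least 50 UMIs over both libraries, 5.51% were higher in PD1/PEM by 1.5-fold or more and 4.57% were lower by as much, so 0 of 6 members past the fold is near the background. At a limit of 2-fold these shares were 0.861% and 0.454%. The ratio was 1.11 for Fgf12 (1.08 to 1.15), 1.01 for Fgf13 (0.974 to 1.04) and 1.17 for Fgf14 (1.10 to 1.24). Channel subunits had wider intervals, with ratios of 1.04 for Scn10a (0.744 to 1.46), 1.33 for Scn4a (0.935 to 1.90) and 0.844 for Scn4b (0.663 to 1.07). The Scn4a interval holds both 1 and 1.5, so a 1.5-fold difference of this gene is neither shown nor excluded. In cells with at most 25% mitochondrial UMIs the Scn4a ratio was 2.03 (1.10 to 3.90), on 17 and 32 UMIs, together below the 50 needed for a gene to be counted.

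Most other channel subunits were also close to even between isotype and PD1/PEM. Of 7 other alpha subunits, 0 were higher or lower by 1.5-fold or more, and their median log2 ratio was 0.14 against 0.01 over all genes. Of 3 other beta subunits 1 was higher, and the homologous factor Fgf11 had a ratio of 1.01 (0.670 to 1.51). The higher beta subunit was Scn3b, at 2.04 CPM in isotype and 3.66 CPM in PD1/PEM, a ratio of 1.79 (1.15 to 2.84) that rests on 34 and 54 UMIs. Genes of sodium transport had ratios of 0.763 for the sodium-calcium exchanger Slc8a1, 0.679 for the sodium pump's beta subunit Atp1b1 and 0.725 for the pump regulator Fxyd1. Rangrf, which helps to bring sodium channels to the cell surface, had a ratio of 0.686, and the alpha subunit Scn1a had 1.44 (0.952 to 2.21).

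The second comparison uses the same isotype library. PDL1/ATZ stood well below it for 3 of the 6 members and above it by 1.5-fold for 0. With nuclear totals Scn4a was also lower (0.641), and in cells with at most 25% mitochondrial UMIs Scn4b was not past the fold (0.897). Fgf12 was 3.84-fold lower (3.64 to 4.05), Fgf13 3.46-fold lower (3.30 to 3.63) and Scn4b 1.67-fold lower (1.29 to 2.19). Over 16373 genes, 6.64% were lower in PDL1/ATZ by 1.5-fold or more and 50.7% were higher, which is 88.4% of the genes past the fold, or 73.5% with totals taken over nuclear genes only. At 2-fold, 3.95% of genes were lower and 27.4% higher, and 2 members, Fgf12 and Fgf13, were lower. Of these genes 617 had no UMIs in isotype and 262 none in PDL1/ATZ, where the lists of symbols read differ, and without them the shares at 1.5-fold were 5.32% lower and 49.6% higher. The median log2 ratio of genes read in both was 0.58, or 0.26 with nuclear totals. Relative to that shift all 6 members lie lower, and no member had a log2 ratio above 0.02. Fgf14 had a ratio of 0.897 (0.843 to 0.954), Scn10a 1.02 (0.725 to 1.42) and Scn4a 0.799 (0.532 to 1.19). The members were picked with these levels in view, so nothing is read from their count against the background.

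In the same comparison the other alpha subunits lay close to the shift of all genes. Of the other alpha subunits 5 of 7 were higher by 1.5-fold or more, of the other beta subunits 1 of 3, and Fgf11 was 1.5-fold higher (1.05 to 2.17), to be read against the 50.7% of all genes. With nuclear totals 3 of 7 alpha subunits (Scn1a, Scn2a and Scn9a, at 1.99, 1.73 and 1.89) and 1 of 3 beta subunits were past the fold, and Fgf11 was at 1.20. All 7 other alpha subunits were above 1 with either total, with a median log2 ratio of 0.60 beside 0.58 over all genes, among them Scn1a at 2.58 CPM in isotype and 6.40 CPM in PDL1/ATZ (ratio 2.48, 1.72 to 3.65), Scn9a (2.36) and Scn2a (2.16), and the beta subunit Scn3b had 2.46. Genes with a lower level were Slc8a1 (2.19-fold lower) and Pkp2, a plakophilin of the intercalated disc (2.06-fold lower). The summed level of the 8 cardiomyocyte markers was also lower in this comparison, at 30869 CPM in isotype and 11149 CPM in PDL1/ATZ. In PD1/PEM that sum was 22826 CPM, where Fgf12, Fgf13 and Pkp2 had ratios over isotype of 1.11, 1.01 and 1.05 and Slc8a1 0.763. The part of muscle content in the library ratios was not tested, and levels within muscle-rich cells follow.

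**Figure D2:**
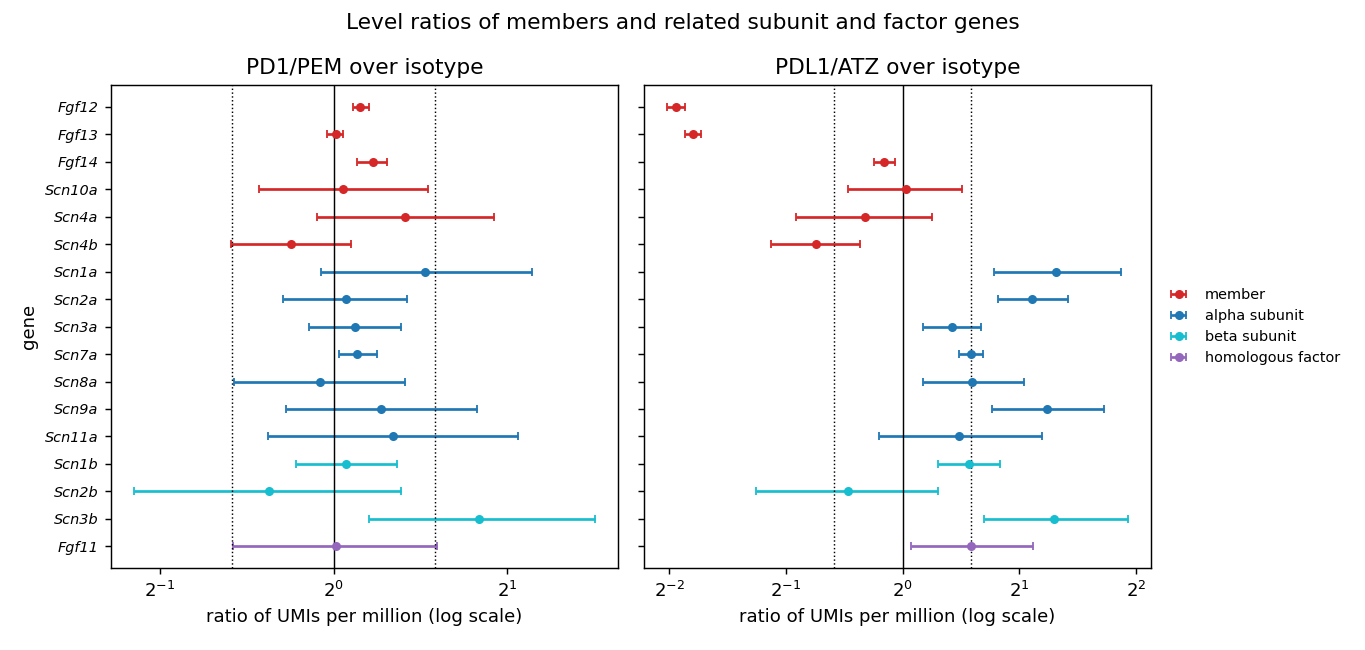
Ratio of CPM over isotype (log axis) for the 6 members, the other alpha and beta subunits and Fgf11, with 95% counting intervals; dotted lines mark 1.5-fold and colours the role. In PD1/PEM all 6 members lie inside the dotted lines; in PDL1/ATZ Fgf12, Fgf13 and Scn4b lie left of them, while the other alpha subunits lie right of 1.

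Cells were then grouped by Ryr2, the calcium release channel of heart muscle, which is no member. Muscle RNA was spread widely over the barcodes: cells with 0 Ryr2 UMIs still held 6674 CPM of the heart myosin Myh6 in isotype, 4818 in PD1/PEM and 3200 in PDL1/ATZ, against 7343, 6173 and 5376 CPM in cells with at least 10 Ryr2 UMIs. These latter cells are called muscle-rich here. They numbered 1320 in isotype (13.9% of cells), 934 in PD1/PEM (14.6%) and 104 in PDL1/ATZ (0.897%).

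The homologous factors were concentrated in muscle-rich cells, each by a larger ratio than Myh6 in each library. Fgf12 stood at 938 CPM in muscle-rich and 226 CPM in 0-Ryr2 cells of isotype, 1323 and 151 CPM in PD1/PEM, and 1302 and 64.4 CPM in PDL1/ATZ. Fgf13 stood at 989 and 258 CPM in isotype, 1300 and 165 CPM in PD1/PEM, and 1558 and 74.2 CPM in PDL1/ATZ. Fgf14 stood at 257 and 82.4 CPM, 346 and 73.1 CPM, and 387 and 107 CPM. In each library and for each of the 3 genes the interval of muscle-rich cells lay above that of 0-Ryr2 cells. Muscle-rich cells held 23.3% of all UMIs in isotype but 51.7% of Fgf12, 46.7% of Fgf13 and 44.2% of Fgf14 UMIs. In PD1/PEM they held 23.7% of all UMIs and 66.6%, 62.1% and 51.9% of the 3 genes. In PDL1/ATZ they held 2.06% of all UMIs but 24.4%, 22.5% and 6.58%.

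Channel subunits gave few UMIs per set of cells. Muscle-rich cells held 26.0% of Scn10a, 27.4% of Scn4a and 18.1% of Scn4b UMIs in isotype, beside 23.3% of all UMIs. The shares were 29.6%, 32.9% and 24.2% in PD1/PEM, beside 23.7%, and 1.41%, 8.89% and 0% in PDL1/ATZ, beside 2.06%, so that of Scn4a was above the share of all UMIs in each library, on 17, 24 and 4 UMIs. Scn4b stood at 7.72 CPM in muscle-rich cells of isotype (5.21 to 11) and 8.52 CPM in 0-Ryr2 cells (3.13 to 18.5), and in PDL1/ATZ 0 UMIs fell in muscle-rich cells, with an interval up to 11.8 CPM. Scn4a stood at 4.37 CPM in muscle-rich cells of isotype (2.55 to 7.00), 6.85 in PD1/PEM (4.39 to 10.2) and 12.8 in PDL1/ATZ (3.49 to 32.8, 4 cells), where all deposited cells had 2.97 CPM. In 0-Ryr2 cells it stood at 1.42 (0.0360 to 7.91), 4.57 (1.48 to 10.7) and 2.38 CPM (1.41 to 3.77), so the intervals of the 2 sets overlapped in each library.

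**Figure D3:**
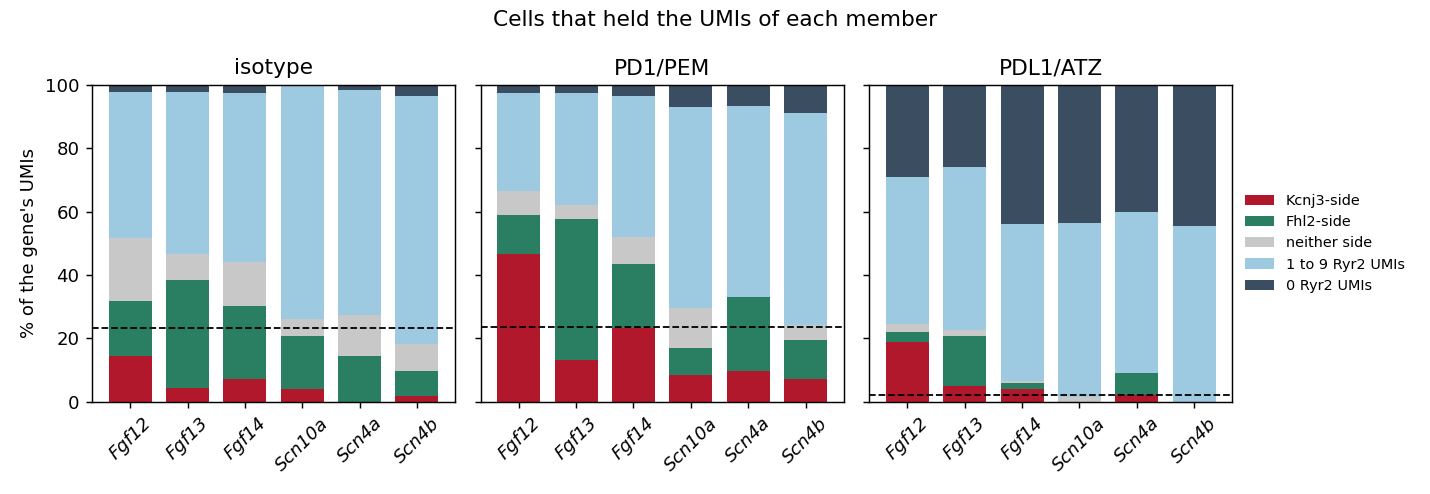
Share of the UMIs of each member (percent, stacked bars) that lay in each set of cells, by library; the dashed line is the share of all UMIs held by muscle-rich cells (23.3%, 23.7% and 2.06%). Muscle-rich parts (red, green and grey) of Fgf12, Fgf13 and Fgf14 reach above the line in all 3 libraries.

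Over all muscle-rich cells the factors were not lower in PDL1/ATZ. Fgf12 was 1.39-fold higher there than in isotype (1.25 to 1.54), Fgf13 1.58-fold (1.43 to 1.73) and Fgf14 1.51-fold (1.24 to 1.82), and with totals over nuclear genes only the ratios were 1.12, 1.27 and 1.21. Median mitochondrial share in these cells was 24.8% in isotype and 4.52% in PDL1/ATZ. In 0-Ryr2 cells PDL1/ATZ had 3.51-fold less Fgf12 (2.91 to 4.21) and 3.49-fold less Fgf13 (2.93 to 4.13), whereas Fgf14 had a ratio of 1.30 (0.992 to 1.72). Between PD1/PEM and isotype the 3 genes had ratios of 1.41 (1.35 to 1.47), 1.31 (1.26 to 1.37) and 1.35 (1.24 to 1.47) in muscle-rich cells, and Fgf12 and Fgf13 had 0.668 (0.534 to 0.836) and 0.640 (0.518 to 0.791) in 0-Ryr2 cells. The near-equal levels of Fgf12 and Fgf13 over these whole libraries thus combine ratios above and below 1.

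A part of the muscle-rich cells was assigned to 2 sides by genes that are no members. Cells with at least 2 UMIs of Kcnj3, a subunit of the acetylcholine-gated potassium channel of atrial muscle, and more Kcnj3 than Fhl2 and Kcnip2 UMIs together are called Kcnj3-side. Cells with at least 2 UMIs of Fhl2, a LIM protein of heart muscle, and Kcnip2, a ventricular potassium channel subunit, together, and more of these than of Kcnj3, are called Fhl2-side. Kcnj3-side cells numbered 102, 275 and 26 in isotype, PD1/PEM and PDL1/ATZ, Fhl2-side cells 787, 491 and 57, and the other 431, 168 and 21 were on neither side. Of 7 listed atrial markers that took no part in the choice, 5 in isotype, 5 in PD1/PEM and 4 in PDL1/ATZ were higher on the Kcnj3 side with a counting interval above 1, and 0 were lower. Of 6 ventricular markers 3, 2 and 2 were lower there and 0 higher. Kcnj3-side over Fhl2-side, the atrial myosin light chain Myl4 had ratios of 1.5, 1.65 and 2.37, Nppa 1.29, 1.49 and 1.87, and the ventricular light chain Myl2 0.639, 0.629 and 0.390. Stard10 and Sln, also on the atrial list, had ratios of 0.682, 0.748 and 1.70 and of 1.27, 1.05 and 1.20, and the ventricular Lrrc10 had 1.0, 0.813 and 0.697. Of the 7 cardiomyocyte markers outside the choice, 2 in each library were higher and 2, 2 and 3 lower on the Kcnj3 side beyond counting error, among them Pln, which restrains the calcium pump of muscle (0.795, 0.631 and 0.560), and the Z-disc protein Actn2 (1.44, 1.29 and 1.05). Ttn had ratios of 1.05, 1.01 and 0.721.

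Fgf12 had the largest ratio between the sides of the 3 factors in each library. In isotype it stood at 3108 CPM in Kcnj3-side cells (2919 to 3306) and 498 CPM in Fhl2-side cells (471 to 527), a 6.24-fold difference (5.73 to 6.79). In PD1/PEM the levels were 3072 and 447 CPM, 6.86-fold apart (6.36 to 7.41), and in PDL1/ATZ they were 3893 and 267 CPM, 14.6-fold apart (10.8 to 20.1). Kcnj3-side cells were the higher in all 3 libraries, and no interval of one side overlapped that of the other. Without predicted doublets the PDL1/ATZ difference was 9.60-fold (6.94 to 13.6).

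Fgf13 did not share this difference. It stood at 1065 CPM in Kcnj3-side and 1142 CPM in Fhl2-side cells of isotype (ratio 0.933, 0.832 to 1.04), at 921 and 1713 CPM in PD1/PEM (1.86-fold lower in Kcnj3-side cells, 1.73 to 2.0), and at 1335 and 1849 CPM in PDL1/ATZ (1.38-fold lower, 1.11 to 1.74). The sides therefore could not be told apart by Fgf13 in isotype, and Kcnj3-side cells were lower in the other libraries. Fgf14 was closer to Fgf12: 503 and 211 CPM in isotype (2.39-fold, 1.99 to 2.85), 516 and 248 CPM in PD1/PEM (2.08-fold, 1.83 to 2.35), and 878 and 218 CPM in PDL1/ATZ (4.02-fold, 2.69 to 6.08). Channel subunits were too sparse to compare, with 0 to 17 UMIs per side.

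**Figure D4:**
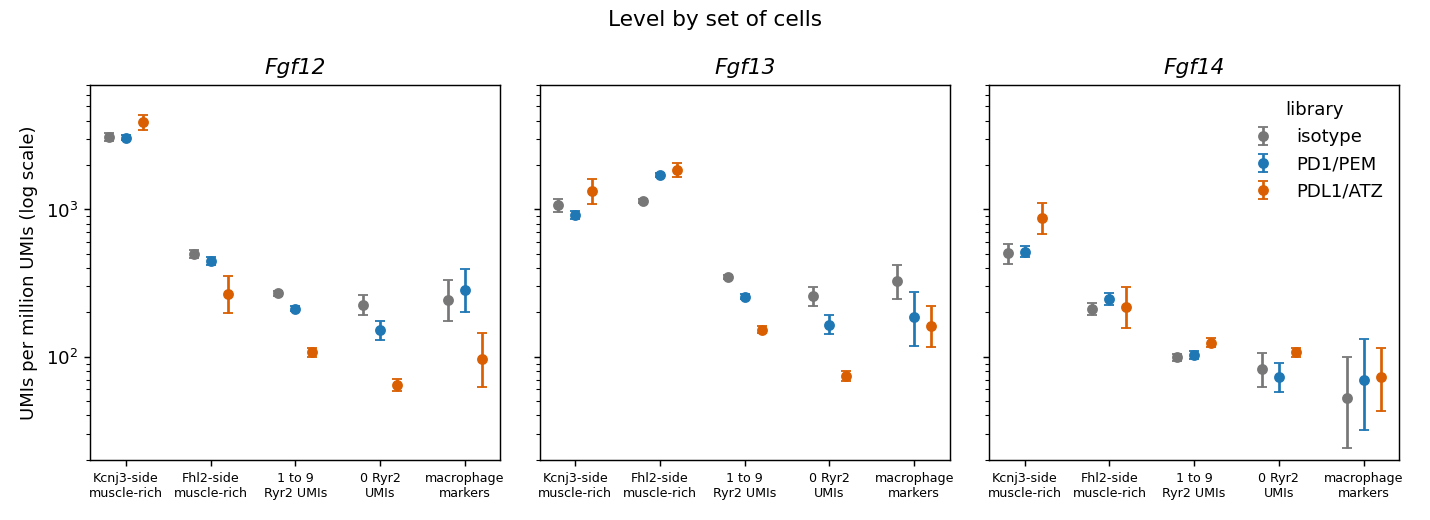
Level of Fgf12, Fgf13 and Fgf14 in CPM (log axis) by set of cells and library (points), with 95% Poisson intervals for counting error. Fgf12 falls from 3072 to 3893 CPM in Kcnj3-side cells to 267 to 498 CPM in Fhl2-side cells, Fgf13 is high on both sides, and macrophage-marked cells lie near the cells poor in Ryr2.

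Muscle-rich cells on neither side had 1280, 987 and 891 CPM of Fgf12, between the sides, and 627, 599 and 829 CPM of Fgf13, below both. Leaving them aside, the order of the sets for Fgf12 was Kcnj3-side, Fhl2-side, cells with 1 to 9 Ryr2 UMIs (269, 212 and 107 CPM) and cells with 0, and neighbours in this order had separate intervals in PD1/PEM and PDL1/ATZ. In isotype the last 2 sets, at 269 (260 to 278) and 226 CPM (192 to 264), overlapped. For Fgf13 the 2 sides came first in either order, followed by cells with 1 to 9 Ryr2 UMIs (349, 255 and 153 CPM) and 0-Ryr2 cells. For Fgf14 the last 2 sets overlapped in isotype, at 99.5 and 82.4 CPM (62.5 to 106).

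The sides were also compared across libraries. Fgf12 in Kcnj3-side cells had a ratio of 0.988 (0.921 to 1.06) in PD1/PEM over isotype, and in Fhl2-side cells 0.898 (0.822 to 0.981). Of muscle-rich cells, 275 of 934 were Kcnj3-side in PD1/PEM and 102 of 1320 in isotype, beside the 1.41-fold ratio of Fgf12 over all muscle-rich cells. These numbers rest on the levels of the gating genes, and their part in that ratio was not tested. Fgf13 in Fhl2-side cells was 1.5-fold higher in PD1/PEM (1.43 to 1.58) and 1.62-fold higher in PDL1/ATZ (1.44 to 1.81), or 1.31-fold with nuclear totals, than in isotype, where it stood at 1142 CPM. Fgf12 in the 57 Fhl2-side cells of PDL1/ATZ was 1.86-fold lower (1.40 to 2.53).

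Single cells showed the same contrast. Per 10000 UMIs, the median Kcnj3-side cell of isotype held 28.0 Fgf12 UMIs (quartiles 11.7 and 42.0) and the median Fhl2-side cell 0 (upper quartile 4.66). In PD1/PEM the medians were 25.9 and 0, and in PDL1/ATZ 32.1 and 0. Fgf13 had medians of 8.38 on the Kcnj3 side and 8.39 on the Fhl2 side of isotype, 6.40 and 14.1 in PD1/PEM, and 8.28 and 11.4 in PDL1/ATZ. More Fgf12 than Fgf13 UMIs were counted in 77.5% of Kcnj3-side cells of isotype, 82.9% in PD1/PEM and 76.9% in PDL1/ATZ, against 19.6%, 16.3% and 7.02% of Fhl2-side cells. These shares compare the sides and were not used to compare the 2 genes with each other.

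**Figure D5:**
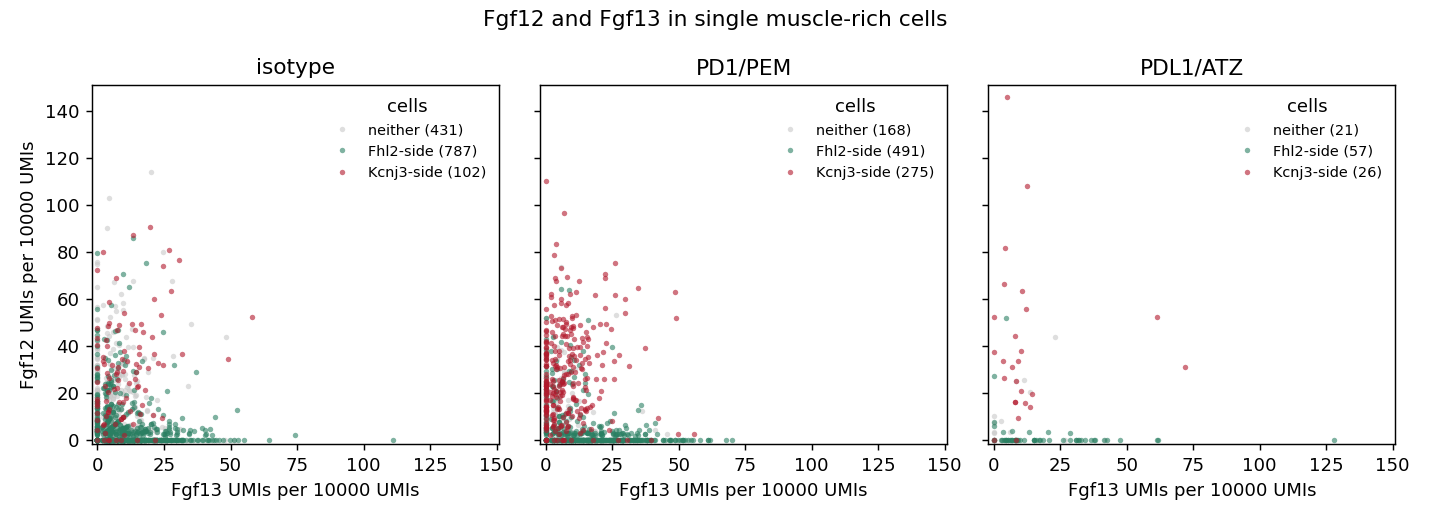
Fgf12 (vertical) against Fgf13 (horizontal) in UMIs per 10000 UMIs in single muscle-rich cells, 1 panel per library, with Kcnj3-side cells in red, Fhl2-side cells in green and others in grey. Cells with more Fgf12 than Fgf13 make up 77.5%, 82.9% and 76.9% of the red cells and 19.6%, 16.3% and 7.02% of the green cells, and few cells are high in both.

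Few cells were rich in both Fgf12 and Fgf13, though more than their shares of all cells would give. At least 10 Fgf12 UMIs were held by 107 isotype, 182 PD1/PEM and 16 PDL1/ATZ cells, and at least 10 Fgf13 UMIs by 72, 159 and 19 cells, while 7, 16 and 3 cells held both. Of Fgf12-rich cells 6.54%, 8.79% and 18.8% were thus Fgf13-rich, against 0.757%, 2.49% and 0.164% of all cells. Within muscle-rich cells the shares were 6.54%, 8.94% and 20% of Fgf12-rich cells, against 5.15%, 15.6% and 16.3% of all muscle-rich cells. Of the Fgf12-rich cells 107, 179 and 15 were muscle-rich, and of the Fgf13-rich cells 68, 146 and 17. The limit of 10 cuts a continuous range: in isotype 43 cells held 8 or 9 and 31 cells 10 or 11 Fgf12 UMIs. As deposited, Fgf12 counts varied more among cells than counting alone would give, with a variance of 6.20, 11 and 6.07 times the mean, Fgf13 with 3.65, 6.67 and 4.21 times and Fgf14 with 1.88, 2.80 and 2.27 times. In cells thinned to 700 UMIs, which removes differences in depth, the variance was 1.78, 2.32 and 1.73 times the mean for Fgf12, 1.35, 1.65 and 1.39 times for Fgf13 and 1.10, 1.16 and 1.18 times for Fgf14. The channel subunits are too sparse for this measure to show a spread. The 1% of cells with the most Fgf12 held 22.9%, 24.5% and 39.3% of its UMIs.

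Detection of a gene in a cell depends on depth, so joint detection was taken in cells thinned to 700 UMIs, which left 9027, 6255 and 11186 cells. Over all of them Fgf12 and Fgf13 were found together 1.08 times as often as the product of their shares in isotype (441 cells, 407 from the product), 1.14 times in PD1/PEM and 1.58 times in PDL1/ATZ. Fgf12 with Fgf14 gave 1.42, 1.70 and 1.46 times, and Fgf13 with Fgf14 1.32, 1.18 (0.990 to 1.40) and 1.41 times. Within muscle-rich cells Fgf12 with Fgf13 gave 0.932 times (0.806 to 1.07), 0.777 times (0.657 to 0.909) and 0.867 times (0.473 to 1.42), so the pair was not found together more often than the product there. Fgf12 with Fgf14 gave 1.40, 1.41 and 1.26 times in the same cells, and Fgf13 with Fgf14 1.09, 0.905 and 0.909 times. Of 15 pairs of members, the 3 pairs among channel subunits had 0 joint cells in every library, where the product gave at most 0.166 cells, so none could be seen at this depth. Without thinning, Scn10a and Scn4a shared 1, 4 and 0 cells where the product gave 0.481, 0.777 and 0.272. The largest value over all thinned cells was that of Scn10a with Fgf14 in isotype, with 7 joint cells where the product gave 1.81 (3.87 times, 1.56 to 7.97). It was picked from all pairs and libraries. In PD1/PEM and PDL1/ATZ this pair had 3 cells against 2.16 and 5 against 2.52, with intervals that hold 1 (0.286 to 4.06 and 0.645 to 4.64).

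The share of cells with at least 1 UMI is no measure of expression here. Fgf12 was found in 34.2%, 34.3% and 9.03% of deposited cells, Fgf13 in 42.8%, 39.4% and 12.0% and Fgf14 in 17.2%, 22.2% and 11.6%. Cells with UMIs of at least 3 macrophage markers, a type that should lack these genes, numbered 84, 49 and 148 and held Fgf12 in 40.5%, 32.7% and 9.46% of cases. Their median depth was 1948, 2355 and 1398 UMIs against 1532, 2014 and 1010 over all cells. Fgf13 was found in 34.5%, 26.5% and 10.1% of them. Fgf14 was found in 10.7%, 12.2% and 10.1%. For Fgf12, Fgf13 and Fgf14 the shares over all cells lie within the counting intervals of these background shares in all 3 libraries, and joint detection reads the same background. Levels were lower in macrophage-marked than in muscle-rich cells, for Fgf12 at 244, 285 and 97.2 CPM. The same rule marked 3277, 2962 and 6851 cells as endothelial and 2882, 1763 and 1083 as fibroblast, with Fgf12 near the library level (390 and 465 CPM in isotype), so it does not separate those types from muscle RNA. Scn10a, Scn4a and Scn4b were found in 0.388% to 1.91% of deposited cells and in 0 of 84 macrophage-marked isotype cells, with an exact upper bound of 4.30%.

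Mitochondrial content moved with the levels inside libraries. In cells with at most 25% and over 25% mitochondrial UMIs, Fgf12 stood at 632 and 331 CPM in isotype and 800 and 316 CPM in PD1/PEM, and Fgf13 at 718 and 395 CPM and 788 and 359 CPM. Ryr2 moved alike, at 4478 and 2625 CPM and 3643 and 1872 CPM. Scn4b went the other way in isotype, at 6.63 (4.59 to 9.27) and 11.4 CPM (9.56 to 13.6). In PDL1/ATZ only 9 cells were over the limit. Restricted to cells at or under it, the Scn4b ratio of PDL1/ATZ over isotype was 0.897 (0.598 to 1.37), and the Fgf12, Fgf13 and Fgf14 ratios were 0.174, 0.197 and 0.629, so Fgf14 stood past the 1.5-fold limit there in place of Scn4b.

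Genes detected in most nearly the same cells were named from 4392 genes by the lowest of the 3 libraries' correlations of detection (Pearson r over thinned cells, which share their library). Fgf12 was closest to Chrm2, the muscarinic receptor of heart muscle (r = 0.124, 0.161 and 0.0950), then Gm31251 and Ryr3. Fgf13 was closest to Rbm20, a splicing factor of muscle genes (r = 0.115, 0.191 and 0.123), then Ryr2 and Ctnna3. Fgf14 was closest to Gm31251, Rbm20 and Slc8a1, with r of 0.0390 to 0.0990. Chrm2 and Ryr3, which were picked for their likeness to Fgf12 in the same cells, stood higher in Kcnj3-side cells, with ratios of 2.55, 2.0 and 2.95 for Chrm2 and 3.94, 3.33 and 7.71 for Ryr3, while Rbm20 had 1.06, 0.962 and 0.931. For Scn10a, Scn4a and Scn4b no r exceeded 0.0290, which in counts this sparse is no finding.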

How the data were processed

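Counts, as deposited by the authors, are whole UMIs per gene and cell in 1 matrix per library, with 30415 symbols. Per the labels, cells of digested hearts were captured with 10x 3′ chemistry; Cell Ranger, Seurat and mm10 are named in the submitters' processing notes, while versions, annotation and cell filters were not given in the sources used here. No deposited cell had over 2499 genes or more than 30.0% mitochondrial UMIs.

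UMIs were summed over all deposited cells, or over a set of cells, and divided by their UMI total. Sums have exact Poisson, shares Clopper-Pearson and ratios exact conditional binomial intervals. Genes needed 50 UMIs over both libraries and counted as apart at 1.5-fold. Doublets were marked (724, 326 and 1076 cells) and left out in an alternative. No test, SE or p-value was computed with 1 library per group. Ratio and joint detection steps were tested on simulated data. Scripts used Python 3.11.15, numpy 2.4.6 and scipy 1.17.1. Promoter windows are from RefSeq (GRCm38.p6) and positions from GENCODE M21.

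Members and lists were chosen with earlier results of these data known; muscle-rich cells, their sides and the limit of 10 UMIs were chosen after seeing the data. Named pathway genes were among the 8 with the largest ratio per comparison, and all members are named; subunit lists are given by their counts. Further genes of the sides were chosen as marker list members or as most alike to a member, and some genes of the lists are not reported here.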

Additional observations from a re-analysis of the deposited data

How the results depend on the processing

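No paired analysis was possible because each group has 1 library, and for the same reason no replicate could be left out. The numbers of members at least 1.5-fold higher (0 and 0) or lower (0 in PD1/PEM, 3 in PDL1/ATZ) were the same under every alternative run, except that 4 were lower in PDL1/ATZ with totals over nuclear genes and 2 at a 2-fold limit; in cells with at most 25% mitochondrial UMIs the 3 lower members were Fgf12, Fgf13 and Fgf14 (0.629), with Scn4b at 0.897. No ratio changed direction past the fold. Ratios of Kcnj3-side over Fhl2-side cells moved beyond their counting interval in these cases, chosen after seeing the data. For Fgf12 they were 5.66 (isotype) and 7.58 (PD1/PEM) with muscle-rich cells from 5 Ryr2 UMIs, 4.57 and 5.51 from 20 Ryr2 UMIs, 7.95 in PD1/PEM cells with at most 25% mitochondrial UMIs, and 9.60 in PDL1/ATZ without predicted doublets. For Fgf13 in PD1/PEM they were 0.609 from 5 Ryr2 UMIs and 0.481 in cells with at most 25% mitochondrial UMIs. For Fgf14 they were 1.95 in isotype and 6.09 in PDL1/ATZ from 20 Ryr2 UMIs. The cause was not tested. Joint detection of the 3 factor pairs was above the product in 9 of 9 values over all thinned cells, and in 6 of 9 in cells with under 3 markers of every other cell type. Of the former, Fgf12 with Fgf13 in isotype and Fgf13 with Fgf14 in PD1/PEM had intervals reaching below 1. In muscle-rich cells the values lay on both sides of 1. Joint detection was part of how the members were picked, so these counts support no test. Depth limits the channel subunits, which have 45 to 166 UMIs per library.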
